A study of Homo sapiens with 4 samples.

Results

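Peaks of open chromatin at stand-alone lncRNA promoters were examined in 2 lists of ATAC-seq peaks, 1 from control and 1 from SNHG1-depleted neuroblastoma cells. A peak was a member when it reached within 1 kb of the start of a gene typed as lncRNA in GENCODE version 44 and lay farther than 3 kb from the start of every protein-coding transcript. Peaks on chromosome X and genes named SNHG were left out. Of 47610 control peaks 1467 were members, and of 42682 sgSNHG1 peaks 1325 were. They lay at 1682 lncRNA genes, of which 1180 had a member peak in both lists, 355 in the control list alone and 147 in the sgSNHG1 list alone. A gene with a member in the control list alone, such as PEG13, can still have an overlapping sgSNHG1 peak that was itself no member. Of the 13034 autosomal lncRNA genes whose start was farther than 3 kb from every protein-coding start, 1672 or 12.8% had a member peak.

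Long non-coding RNAs (lncRNAs) are transcripts that are not translated into a protein of known function. Many are transcribed by RNA polymerase II from promoters of their own, while others start next to a protein-coding gene and share its open chromatin. A promoter that stands alone has no protein-coding start nearby, though starts of other lncRNAs or of other gene types can lie close to it. Among lncRNAs with promoters of their own are MALAT1 and NEAT1, which remain in the nucleus, TERC, the RNA template of telomerase, and the host transcripts from which several microRNAs are cut.

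The cells were SK-N-BE(2)C, an established neuroblastoma line with an amplified MYCN gene. Both groups received guide RNAs. For the SNHG1-depleted cells the paper describes transfection with Cas9, puromycin selection and growth from single sorted cells, and it calls the control a clone. The control group (genotype wildtype) carried a non-targeting guide, and the sgSNHG1 group (genotype SNHG1 knockout) carried guides against SNHG1, a lncRNA gene whose introns carry snoRNAs. Knockout is the label, while the paper states that SNHG1 expression was repressed and not completely lost. The 2 replicates of a group went into a single peak call, so each value below comes from 1 pooled list per group, has no replicate spread and was not tested between the groups. A difference between the lists can also be one between the clones, and these cannot be told apart.

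The fold enrichment of a peak is the fragment pileup at its summit over the local background of its own list, each with 1 added, and -log10 q is its significance over that background. The median pileup over all peaks was 24 fragments in control and 20 in sgSNHG1, and the smallest local background was 2.20 and 1.72 fragments. The smallest peak was 119 bp wide in control and 92 bp in sgSNHG1. Of 9 neuroblastoma markers, MYCN, HAND2, ISL1, GATA3, TBX2, DBH, CHGA and CHGB had a peak within 1 kb of a start in both lists, and TH had none in either. The blood markers PTPRC and CD3E and the liver marker ALB had no such peak, while the epithelial marker EPCAM had peaks, the highest at 8.86-fold in control and 11.3-fold in sgSNHG1. At the start of SNHG1 itself, which the choice of members left out, the peaks of both lists had fold enrichments of 5.71 and 6.04.

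The sequence under the summit differed widely between these promoters. Shown here are 9 windows of 201 bp centred on a summit, on the strand of the lncRNA and in build GRCh38. They comprise well-known lncRNAs (MALAT1, NORAD, TERC, DANCR and the neuroblastoma-linked NBAT1), the named gene with the lowest ratio between the lists among those with a -log10 q over 10 in each, and one of the pair of genes with the highest (SYT15-AS1 and LERFS), and the named peaks of highest fold enrichment found in the control list alone (LINC02256) and in the sgSNHG1 list alone (LINC02613). They were chosen after their values were seen. Capitals mark matches to the short motifs listed further on.
MALAT1: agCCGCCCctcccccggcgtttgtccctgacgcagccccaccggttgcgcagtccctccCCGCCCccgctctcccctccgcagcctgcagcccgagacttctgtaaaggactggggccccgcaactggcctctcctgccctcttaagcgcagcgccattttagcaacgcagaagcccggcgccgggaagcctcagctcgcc
NORAD: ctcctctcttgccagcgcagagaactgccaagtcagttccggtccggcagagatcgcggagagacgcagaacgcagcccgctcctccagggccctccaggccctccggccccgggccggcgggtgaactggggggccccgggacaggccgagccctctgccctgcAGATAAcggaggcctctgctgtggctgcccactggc
TERC: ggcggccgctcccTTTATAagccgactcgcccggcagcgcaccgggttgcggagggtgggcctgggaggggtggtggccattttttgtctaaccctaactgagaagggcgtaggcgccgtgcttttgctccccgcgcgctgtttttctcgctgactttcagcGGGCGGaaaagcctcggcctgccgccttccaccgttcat
DANCR: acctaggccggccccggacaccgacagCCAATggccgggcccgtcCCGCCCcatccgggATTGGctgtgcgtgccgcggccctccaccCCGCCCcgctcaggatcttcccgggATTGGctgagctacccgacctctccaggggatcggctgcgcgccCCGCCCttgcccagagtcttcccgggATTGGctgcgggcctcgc
NBAT1: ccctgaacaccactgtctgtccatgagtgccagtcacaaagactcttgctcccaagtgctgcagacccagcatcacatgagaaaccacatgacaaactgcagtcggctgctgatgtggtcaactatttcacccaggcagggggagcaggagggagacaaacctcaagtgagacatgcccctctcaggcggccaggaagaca
SYT15-AS1: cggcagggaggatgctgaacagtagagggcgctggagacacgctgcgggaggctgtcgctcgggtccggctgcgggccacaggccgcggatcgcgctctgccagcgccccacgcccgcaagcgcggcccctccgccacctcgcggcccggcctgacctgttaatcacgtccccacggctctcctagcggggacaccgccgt
LERFS: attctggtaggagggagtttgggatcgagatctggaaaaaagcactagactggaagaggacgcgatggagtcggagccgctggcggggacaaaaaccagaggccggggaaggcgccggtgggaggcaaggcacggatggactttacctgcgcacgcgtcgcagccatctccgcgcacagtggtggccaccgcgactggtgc
LINC02256: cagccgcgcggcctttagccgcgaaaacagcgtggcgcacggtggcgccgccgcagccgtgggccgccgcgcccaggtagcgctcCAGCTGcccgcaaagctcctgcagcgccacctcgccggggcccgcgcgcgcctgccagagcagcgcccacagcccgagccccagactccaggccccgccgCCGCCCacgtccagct
LINC02613: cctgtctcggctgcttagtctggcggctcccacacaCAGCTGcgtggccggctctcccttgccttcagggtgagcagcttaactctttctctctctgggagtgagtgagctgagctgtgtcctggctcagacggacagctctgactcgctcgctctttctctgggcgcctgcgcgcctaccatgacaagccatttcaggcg
The windows lie at chr11:65497660-65497860 (MALAT1), chr20:36050794-36050994 (NORAD), chr3:169764903-169765103 (TERC), chr4:52712235-52712435 (DANCR), chr6:22146168-22146368 (NBAT1), chr10:46597996-46598196 (SYT15-AS1), chr9:62897680-62897880 (LERFS), chr15:30471149-30471349 (LINC02256) and chr2:38515652-38515852 (LINC02613). The summit of the sgSNHG1 peak was used for LINC02613 and that of the control peak for the others. The G+C content ranged from 55.2% at NBAT1 to 78.1% at LINC02256. NBAT1 held 2 CpG dinucleotides and LINC02256 held 30, with observed-over-expected CpG ratios of 0.131 and 1.01. The DANCR window held 4 CCAAT boxes and 3 GC boxes, more matches than any of the other 8 windows, while no searched motif was found in those of NBAT1, SYT15-AS1 and LERFS.

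Most lncRNA promoter peaks were found in both lists, more often than distal peaks and less often than protein-coding promoter peaks. Of the control members, 375 of 1467 or 25.6% (95% Wilson interval 23.4 to 27.9) had no overlapping sgSNHG1 peak, against 33.5% of all autosomal control peaks. Of the sgSNHG1 members, 185 of 1325 or 14% (12.2 to 15.9) had no control peak, against 21.7% of all autosomal sgSNHG1 peaks. The intervals here and below cover counting error only, and neighbouring peaks of a pooled list are not replicates. In protein-coding promoters, peaks within 1 kb of a protein-coding start, the shares were 18.9% and 8.05%. In distal peaks, farther than 3 kb from every annotated start, they were 41.1% and 30%. Control members thus lay 6.62 percentage points (Newcombe interval 4.36 to 9) above protein-coding promoters and 15.5 points (-17.8 to -13.1 as a difference) below distal peaks. For sgSNHG1 members the differences were 5.91 points (4.09 to 7.93) and -16 points (-17.9 to -13.9).

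Members present in a single list were weak. Their median -log10 q was 5.47 in control and 4.74 in sgSNHG1, against 16.6 and 11.4 for members that overlapped a peak of the other list. When peaks of like strength were compared, the gap to distal peaks was smallest among the strongest. Among control peaks with a -log10 q under 5, 71.4% of 217 members, 72.5% of protein-coding promoter peaks and 78% of distal peaks lacked an sgSNHG1 peak. From 10 to 20 the shares were 14.5% of members, 8.72% and 19.5%. At 20 or more only 6 of 457 control members (1.31%, 0.603 to 2.83) and 2 of 310 sgSNHG1 members (0.645%, 0.177 to 2.32) were found in 1 list. Members of the sgSNHG1 list with a -log10 q under 5 lay 8.88 points (2.74 to 15.3) above protein-coding promoters and 20.2 points below distal peaks (-26.1 to -13.9 as a difference), whereas control members of that strength did not differ from protein-coding promoters beyond counting error (-1.05 points, -7.72 to 4.95).

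**Figure D1:**
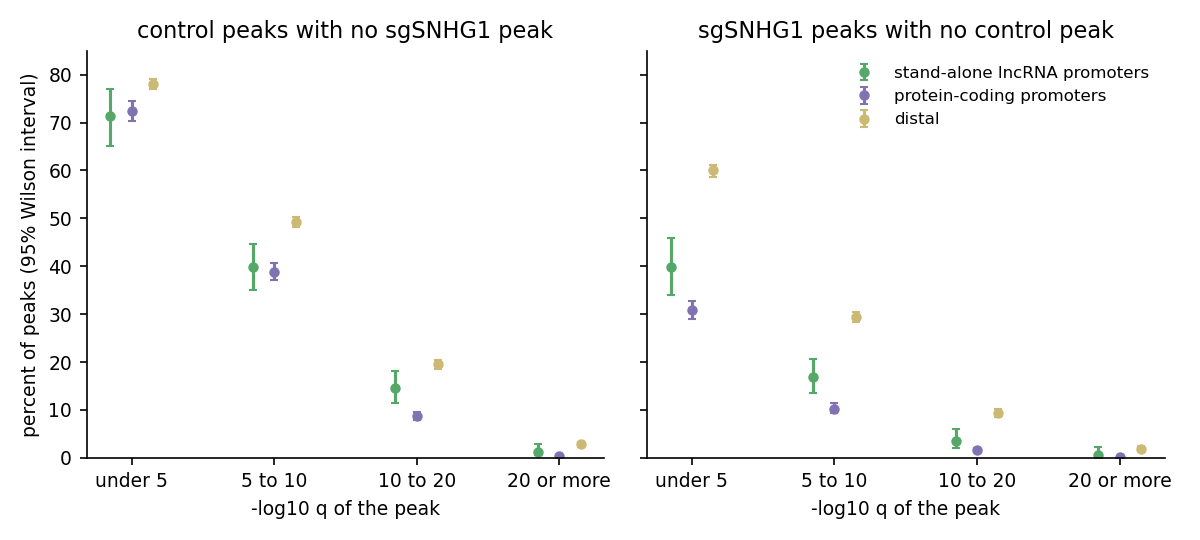
Share of peaks without a counterpart in the other list (y axis, percent) by the -log10 q of the peak (x axis), for control peaks on the left and sgSNHG1 peaks on the right. Points are shares and bars 95% Wilson intervals; lncRNA promoter members fell from 71.4% to 1.31% in control and from 39.8% to 0.645% in sgSNHG1 across the 4 bins.

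The number of member peaks differed between the lists about as much as that of all peaks. The ratio of sgSNHG1 to control numbers was 0.903 for members and 0.893 for all autosomal peaks. The covered length of members had a ratio of 0.654, from 675 kb in control to 442 kb in sgSNHG1. That ratio was not computed over all peaks. In pairs of overlapping peaks the median log2 ratio of width was -0.416 over all autosomes and -0.442 for members. Members made up 3.14% of the autosomal control peaks and 3.18% of the autosomal sgSNHG1 peaks. Their median fold enrichment was 5.95 (quartiles 4.56 and 8.19) in control and 5.83 (4.58 and 8) in sgSNHG1. It lay between the 6.58 and 6.26 of protein-coding promoters and the 5.19 and 5.34 of distal peaks in the same order of lists. The median member was 398 bp wide with a pileup of 27 fragments in control, and 275 bp wide with 23 fragments in sgSNHG1.

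Members were chosen in a window with the lncRNA start at its centre, so the position of their summits is given as a description. Median summit positions were -5 and -9 bp in control and sgSNHG1, negative values being upstream, and 53.9% and 54.3% of summits lay within 250 bp of the start. Members with a counterpart were closer to the start than those without. In control 57.6% (54.6 to 60.5) of 1092 members with a counterpart had their summit within 250 bp, against 42.9% (38 to 48) of 375 without. In sgSNHG1 the shares were 56.8% (53.9 to 59.6) and 38.9% (32.2 to 46.1).

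**Figure D2:**
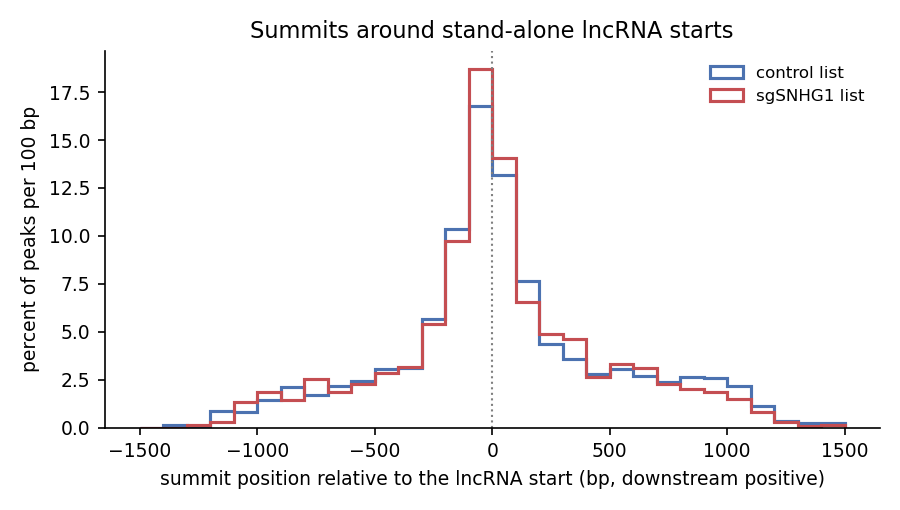
Position of the summit of each lncRNA promoter member relative to the nearest lncRNA start (x axis, bp along the gene's strand, downstream positive) as a percent of members per 100 bp (y axis), for the control list (blue) and the sgSNHG1 list (red). Both lists peak in the 100 bp upstream of the start, with medians of -5 and -9 bp.

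The limits of position separated peaks of similar strength. Control members 3 to 4 kb from a protein-coding start had a median fold enrichment of 5.01, and peaks at lncRNA starts left out at 2 to 3 kb had 4.98. Control members 0.5 to 1 kb from a lncRNA start had 4.93, and peaks left out at 1 to 1.5 kb had 5.16. The choice of members set the least distance of a peak to a protein-coding start, and the median distance of the genes' starts was 36826 bp (quartiles 14827 and 91846). Of the 1682 starts, 1387 or 82.5% were outside protein-coding genes, 209 or 12.4% were inside a protein-coding gene on the other strand alone, and 86 or 5.11% were inside one on the same strand. A member peak in both lists was found for 72% of the first group, 65.6% of the second and 51.2% of the third. Of the genes 622 had a symbol, among them 315 LINC genes, 121 named as antisense and 21 microRNA hosts, and 1060 had only an Ensembl identifier. In control 171 members lay at 2 or more lncRNA starts and their reads cannot be assigned to 1 gene.

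By sequence, lncRNA promoters fell between protein-coding promoters and distal peaks, and their CpG content spread over the range of both. The observed-over-expected CpG ratio compares the CpG dinucleotides of a window with those that its C and G content would give. Its median in the 201 bp around the summit was 0.556 for control members, 0.826 for protein-coding promoters and 0.215 for distal peaks. A window was called CpG-rich with a G+C content over 50% and a ratio over 0.6. Of the control members 654 or 44.6% (42.1 to 47.1) were CpG-rich, against 75.8% of protein-coding promoters and 5.04% of distal peaks. In sgSNHG1 the shares were 44.2% (41.6 to 46.9), 78.1% and 4.65%.

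**Figure D3:**
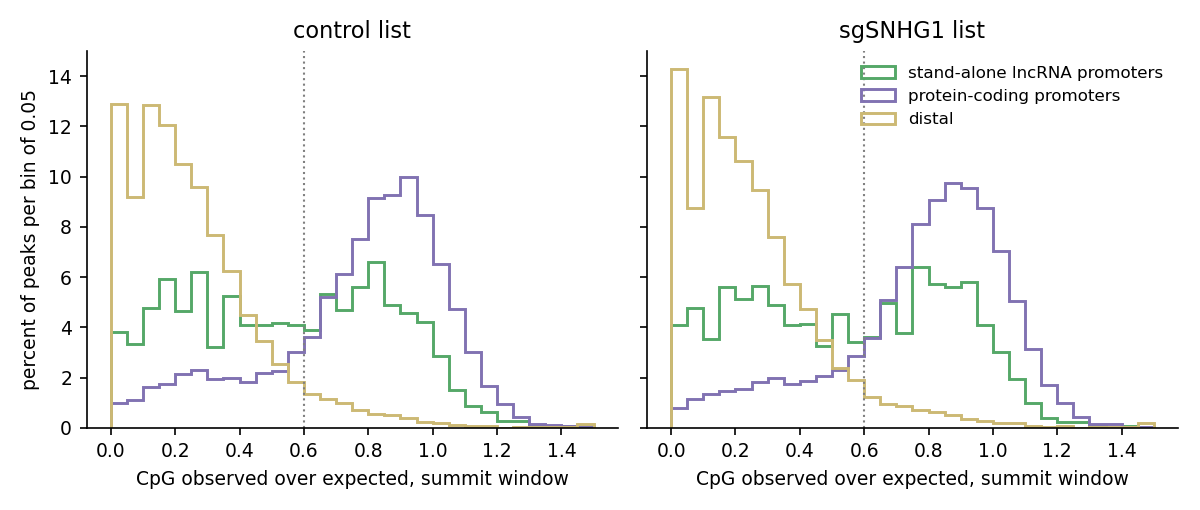
Observed-over-expected CpG ratio in the 201 bp around the summit (x axis) as a percent of peaks per bin of 0.05 (y axis), for the control list on the left and the sgSNHG1 list on the right. The dotted line marks 0.6, and ratios above 1.5 are drawn at 1.5. Stand-alone lncRNA promoters (green) spread over both the low range of distal peaks (yellow) and the high range of protein-coding promoters (purple), with medians of 0.556, 0.215 and 0.826 in control.

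CpG-rich members were stronger and more often present in both lists. In control their median fold enrichment was 6.88 (quartiles 5.1 and 9.16), against 5.36 (4.33 and 7.08) for the other 813 members, and their median width 498 bp against 341 bp. Of the CpG-rich members 17.3% (14.6 to 20.4) lacked an sgSNHG1 peak, against 32.2% (29.1 to 35.5) of the others. In sgSNHG1 4.78% (3.33 to 6.82) of 586 CpG-rich members and 21.2% (18.4 to 24.3) of the other 739 lacked a control peak. Peaks of like strength were also compared. In control peaks of a -log10 q from 5 to 10 the shares were 35.1% (27.5 to 43.5) and 42.2% (36.4 to 48.3), whose intervals overlap. In sgSNHG1 peaks of that strength they were 7.38% (4.17 to 12.7) and 22% (17.5 to 27.4), whose intervals do not. Control intervals also overlapped under 5 (65.7% and 74%), from 10 to 20 (11.2% and 17.3%) and at 20 or more (0.376% and 2.62%). Those of sgSNHG1 were apart under 5 (20.5% and 47.5%) and from 10 to 20 (0.592% and 6.29%), but not at 20 or more (0.513% and 0.87%). This split was not made over all peaks, so it cannot be called particular to lncRNA promoters. The log2 ratio of fold enrichment in pairs did not separate the groups, with a median of -0.05 (-0.09 to -0.03) in CpG-rich and -0.04 (-0.06 to 0.00) in other pairs.

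Short motifs were searched on both strands within 100 bp of the summit: the CCAAT box (CCAAT), the GC box bound by SP factors (GGGCGG), the TATA box (TATAAA), an ETS core (CCGGAAG), an E-box bound by MYC (CACGTG), another E-box (CAGCTG), a neural-type E-box (CATCTG), the cAMP response element (TGACGTCA), the AP-1 site (TGACTCA, whose reverse complement differs only in the middle base), YY1 (GATGGCGG), the GATA factor motif (AGATAA) and pieces of the CTCF motif (AGGTGGCA or AGGGGGCG). The GC box was in 34% (31.6 to 36.5) of control member windows, between 56.4% of protein-coding promoters and 7.88% of distal peaks, and in 25% of all autosomal windows. The ETS core was in 6.48% (5.33 to 7.85), against 11.7%, 1.26% and 4.83% of the same classes. The neural-type E-box, a form used by neural bHLH factors, was in 18.5% (16.6 to 20.5), against 9.25%, 30.4% and 22.9%, and the GATA motif in 7.98% (6.7 to 9.47), against 2.97%, 16.3% and 11.3%. For each of these 4 motifs members lay between both classes. The CCAAT box differed less, with 23% of members, 26.6% of protein-coding promoters and 24.4% of distal peaks. In the sgSNHG1 list the member shares were 34.9% for the GC box, 7.77% for ETS, 19.5% for the neural-type E-box, 7.25% for GATA and 26% for CCAAT. A match is a run of letters and does not show that a factor was bound.

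GC boxes and ETS cores were less frequent in members found in 1 list. In control the GC box was in 37.4% (34.5 to 40.3) of windows with a counterpart and in 24.3% (20.2 to 28.9) of those without, and in sgSNHG1 in 38.2% (35.5 to 41.1) and 14.6% (10.2 to 20.4). The ETS core was in 7.69% (6.26 to 9.43) and 2.93% (1.65 to 5.18) of control windows. The neural-type E-box went the other way in sgSNHG1, with 18.3% (16.2 to 20.7) of windows with a counterpart and 26.5% (20.7 to 33.3) of those without, and was level in control at 18.5% and 18.4%. It was not alone in this. In sgSNHG1 the E-box CAGCTG had 20.4% (18.1 to 22.8) and 26.5% (20.7 to 33.3), the AP-1 site 5.35% and 9.19%, and the GATA motif 6.58% and 11.4%. The CCAAT box had 27.2% and 18.4%, the direction of the GC box. The same split was not made over all peaks. Whether CpG content or strength had a part in these shares was not tested.

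Accessibility at lncRNA promoters present in both lists was close to equal. In 1093 pairs of mutually best overlapping peaks, at least 1 of them a member, fold enrichment in sgSNHG1 relative to control had a median log2 ratio of -0.045 (95% order-statistic interval -0.065 to -0.029), and 57.4% (54.4 to 60.3) of pairs were lower in sgSNHG1. Over all 30997 autosomal pairs the median was also -0.045 and 55.5% were lower. The median was -0.077 in protein-coding promoter pairs and -0.014 in distal pairs. A log2 ratio of -0.5 or lower was seen in 98 member pairs or 8.97% (7.41 to 10.8), against 9.01% of all pairs. A ratio of 0.5 or higher was seen in 44 or 4.03% (3.01 to 5.36), against 5.35% of all pairs. Both shares were near that of all pairs. The scaled pileup, the pileup over the smallest background of its list, had a median log2 ratio of -0.024 (-0.042 to 0.007) in member pairs.

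Width differed more than height. The median log2 ratio of width was -0.442 (-0.490 to -0.381), a median difference of -123 bp, and 82.3% (79.9 to 84.4) of member pairs were narrower in sgSNHG1. All autosomal pairs had a median of -0.416, with 79.8% narrower. The smallest peak of the list, 92 bp in sgSNHG1 and 119 bp in control, moved in the same direction, and its part in the width was not tested. In 73 of 1467 control members the peak overlapped 2 or more sgSNHG1 peaks, while 1 of 1325 sgSNHG1 members overlapped 2 or more control peaks. These counts were not taken over all peaks, so they cannot be called particular to lncRNA promoters.

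**Figure D4:**
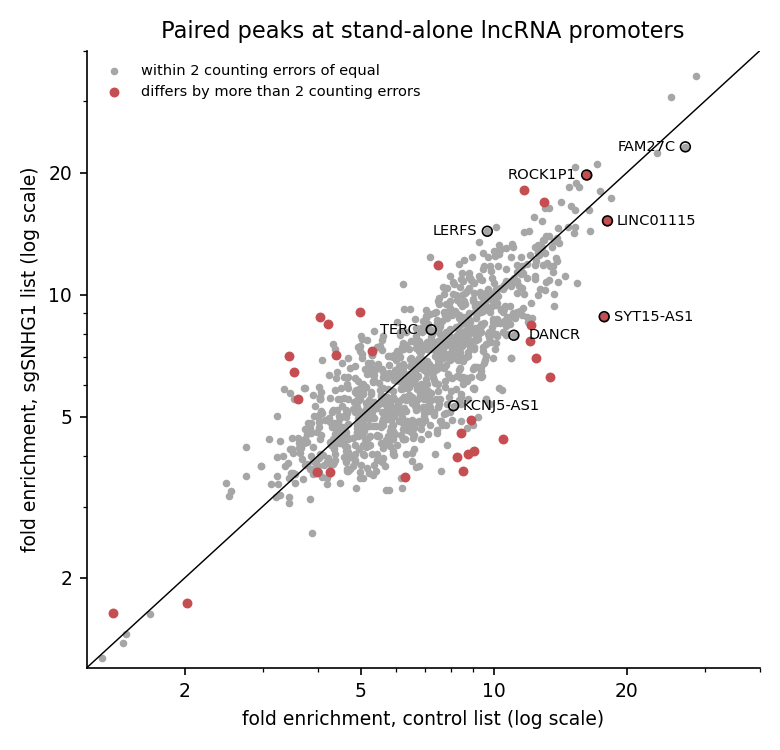
Fold enrichment of 1093 paired peaks at stand-alone lncRNA promoters in the control list (x axis) and the sgSNHG1 list (y axis), both on log scales, with the line of equal values. Red points differ by more than 2 Poisson counting errors; 17 of them lie below the line and 13 above it, and a few named genes are circled.

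Few single promoters differed beyond the counting error of their pileups. The median counting error of a log2 ratio was 0.39, larger than the spread over member pairs (robust SD 0.31). The counting error was thus wide for a typical pair, and a ratio within it does not show equal accessibility. Of the 1093 pairs 17 or 1.56% were lower in sgSNHG1 by more than 2 counting errors, against 1.57% of all autosomal pairs, and 13 or 1.19% were higher, against 1.12% of all. The scaled pileup also passed 2 counting errors in the same direction for 16 of the 17 and for 8 of the 13. In 10 of the 30 pairs the nearest lncRNA start belonged to a gene with a symbol, and the pair nearest to ENSG00000289409 (12.1 in control and 8.41 in sgSNHG1) also lay at LINC00881. Of the 10, the lower ones were LINC01347 (fold enrichment 10.5 in control and 4.41 in sgSNHG1), PRKG2-AS1 on chromosome 4 (8.54 and 3.68), LINC00665 (8.74 and 4.04), LINC02820 (13.4 and 6.25), SYT15-AS1 (17.8 and 8.83), LINC02897 (6.30 and 3.54) and LINC01115 (18.1 and 15.2). The higher ones were KIRREL3-AS1 (4.40 and 7.10) and both peaks of ROCK1P1 (16.2 and 19.7, and 5.30 and 7.28). These genes were singled out after their values were seen, and in their number the 30 pairs did not stand out from all pairs.

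Of the well-known nuclear and broadly expressed lncRNAs with a member peak, NEAT1 was the 1 without a member in both lists. Of 16 listed genes, 7 had a member peak in both lists, 1 in control alone, 6 had a peak that was left out because a protein-coding start lay within 3 kb, 1 (CYTOR) had no peak at its start, and TUG1 is annotated as protein-coding. Among the 7 genes 6 had the lower fold enrichment in sgSNHG1, with a median log2 ratio of -0.27, against -0.045 over all pairs. By the scaled pileup 5 were lower and the median was -0.15. None of the 7 differed by more than 2 counting errors.

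MALAT1, a nuclear speckle RNA (chr11:65497341-65497881), had control and sgSNHG1 fold enrichments of 6.28 and 5.25, from pileups of 34 and 27. Its log2 ratio was -0.26 with a counting error of 0.37, and 0.03 for the scaled pileup, so the direction rested on the scale. NORAD, an abundant RNA that binds PUMILIO proteins (chr20:36050585-36051027), had 8.74 and 7.23 (log2 ratio -0.27, error 0.43). EPB41L4A-AS1, a broadly expressed snoRNA host (chr5:112160569-112161072), had 10.9 and 8.81 (-0.30, error 0.31). In all 3 the fold enrichment was lower in sgSNHG1 by no more than about 1 counting error. CHASERR, a regulator of the neighbouring CHD2 gene, had 7.46 and 8.52 (0.19, error 0.37), with its summit 1032 bp downstream of the start. LINC00467 had 9.40 and 8.42 (-0.16, error 0.35), and PVT1, a neighbour of MYC, had 7.21 and 5.71 (-0.34, error 0.31). CHASERR was the 1 gene of the 7 with the higher value in sgSNHG1. NEAT1, the scaffold of paraspeckles, had a control peak upstream of its start (chr11:65422216-65422391) with a fold enrichment of 2.65, a -log10 q of 3.79 and a pileup of 28 over a background of 9.94. This is a weak peak, of a strength at which 71.4% of control members lacked a counterpart.

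DANCR, a snoRNA host named for its role in keeping progenitor cells undifferentiated (chr4:52711990-52712782), had fold enrichments of 11.1 and 7.94 in control and sgSNHG1. The log2 ratio was -0.48 with a counting error of 0.35. The pileup was 76 and 22 fragments and the local background 5.93 and 1.90, so pileup and background were both lower in sgSNHG1, and the scaled pileup had a log2 ratio of -1.43. DANCR lies on chromosome 4, where all 1135 pairs had a median log2 ratio of -0.20 for fold enrichment and -0.54 for the scaled pileup. The 32 member pairs of that chromosome had medians of -0.43 and -0.70. Of these member pairs 28 or 87.5% had the lower fold enrichment in sgSNHG1, against 71.6% of all pairs on chromosome 4. Without chromosome 4 the member median was -0.04 for fold enrichment and -0.01 for the scaled pileup. Chromosome 4 also had fewer peaks in all, 2341 in control and 1403 in sgSNHG1, and 51.4% of its control peaks lacked a counterpart. Chromosome 18 had the fewest members, 20 in control and 11 in sgSNHG1, and 12 of the 20 lacked a counterpart (60%, against 41.9% of all its control peaks). On the other chromosomes the share of control members without a counterpart ran from 17.6% on chromosome 19 to 36% on chromosome 4. The part of chromosome 4 in the DANCR values was not tested.

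Of the listed imprinted and neural lncRNAs, 4 had a member peak in both lists. Lacking a member peak was the usual state, since 12.8% of all lncRNA genes far from protein-coding starts had a member. The genes listed here were not limited to those far from protein-coding starts. Of 11 imprinted genes, 6 (MEG3, MEG8, MEG9, H19, AIRN and GNAS-AS1) had no peak at their start. KCNQ1OT1, the antisense RNA that silences genes of the KCNQ1 cluster (chr11:2700069-2700335), had 7.25 in control and 6.62 in sgSNHG1 (log2 ratio -0.13, error 0.35). PEG13 had a member peak in control alone, with 5.04. Its control peak overlapped an sgSNHG1 peak, at a log2 ratio of -0.15, that was itself no member. Of 15 neural genes, 9 had no peak, among them DLX6-AS1, RMST, PAUPAR and MIR124-1HG. MIAT had 4.92 and 4.70 (-0.07, error 0.53), LINC00461 had 4.60 and 4.23 (-0.12, error 0.55), and LINC01122 had 5.24 and 5.30 (0.02, error 0.48). These 3 neural promoters were below the median member in both lists and moved by less than their counting error.

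Of the neuroblastoma-linked lncRNAs only LINC01410 stood above the median member. Of 15 listed genes, 3 had members in both lists, 2 in the control list alone, 5 were open but within 3 kb of a protein-coding start, and 3 had no peak. NBAT1, a lncRNA linked to differentiation and lower risk in neuroblastoma, had 5.50 in control and 4.48 in sgSNHG1 (log2 ratio -0.30, error 0.45), with its summit 925 bp downstream of the start (chr6:22146027-22146332). The scaled pileup gave 0.01, so no direction held on both scales. CASC15, which lies in the same susceptibility region, had 4.78 with a -log10 q of 6.74 in control and no sgSNHG1 peak. MYCNUT, upstream of MYCN (chr2:15920062-15920461), had 5.62 and 4.93 (-0.19, error 0.41). TBX2-AS1, whose own start lay 2833 bp from a protein-coding start, had a control member with 3.87. The sgSNHG1 counterpart of this peak was lower by 0.58 on the log2 scale but was itself no member. LINC01410 had 15.4 and 18.9 (0.30, error 0.16), the highest of the list. HAND2-AS1 and LINC00682 had no peak at their starts. The median log2 ratio of the 3 genes was -0.19, and 0.01 for the scaled pileup, so its sign rested on the scale. No gene of this list that was compared passed 2 counting errors.

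TERC, the telomerase RNA, was the 1 eligible gene of 3 small catalytic and structural RNAs, as RMRP and RPPH1 are annotated as ribozymes. Its peak (chr3:169764793-169765251) had 7.22 in control and 8.20 in sgSNHG1, from pileups of 57 and 49. The log2 ratio was 0.18 with a counting error of 0.28. The TERC window printed above held a TATA-like match and a GC box.

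MicroRNA host genes had a member peak at 21 of 79 genes, 13 in both lists and 8 in control alone. Over all lncRNA genes far from protein-coding starts 12.8% had a member. Of the 1682 genes with a member 355 were in the control list alone and 147 in the sgSNHG1 list alone. The 355 include genes such as PEG13, whose control peak overlapped an sgSNHG1 peak that was no member. The 79 hosts were not limited to genes far from protein-coding starts, so the 12.8% has another base. A further 8 were open within 3 kb of a protein-coding start, and 50 had no peak at their start. The median log2 ratio of the 13 genes was 0.15, and 5 were lower in sgSNHG1 (0.29 and 4 by the scaled pileup). These include MIR17HG and MIR9-3HG, whose highest peaks were at different sites in the lists. MIR17HG, the host of the miR-17-92 cluster and a known target of MYC proteins, had 7.30 and 6.89 at different sites around its start. The sgSNHG1 partner of its upstream control peak was lower by 0.22 on the log2 scale. MIR9-1HG, host of the neural miR-9, had 6.97 and 8.20 (log2 ratio 0.235, error 0.255). MIRLET7A1HG, a let-7 host, had 8.53 and 10.8 (0.35, error 0.26), while MIRLET7IHG had 9.11 and 7.72 (-0.24, error 0.28), so let-7 hosts went both ways. MIR181A1HG had 6.69 and 8.09, and MIR181A2HG had 8.63 and 10.1. The control-only hosts were MIR130AHG (6.87), MIR3142HG (6.79), MIR194-2HG (6.17), MIR31HG (5.31), MIRLET7BHG (4.08), MIR2052HG (4.06), MIR193BHG (3.92) and MIR137HG (2.94). None of the 13 differed by more than 2 counting errors.

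**Figure D5:**
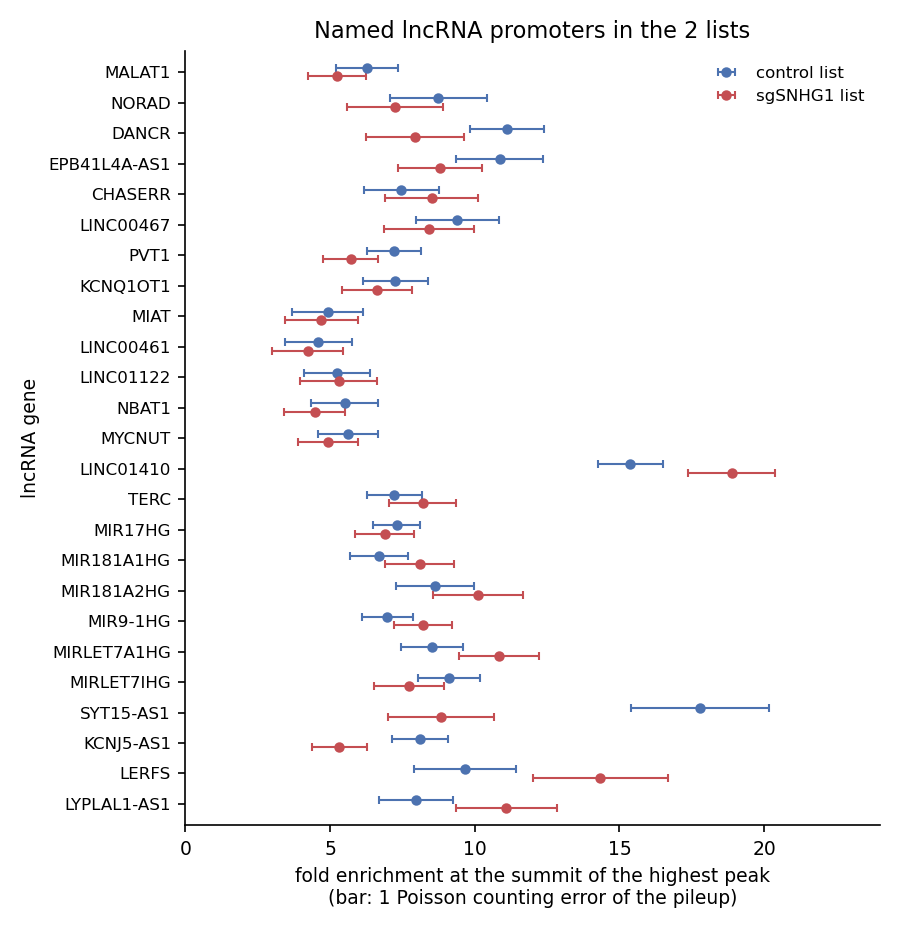
Fold enrichment at the summit of the highest member peak (x axis) of 25 named lncRNA genes (y axis) in the control list (blue) and the sgSNHG1 list (red), with bars of 1 Poisson counting error of the pileup. Bars overlap for most genes and are farthest apart for SYT15-AS1, with 17.8 in control and 8.83 in sgSNHG1.

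The highest fold enrichments included genes with pseudogene names. Among pairs with a gene symbol they were FAM27C (27.2 in control and 23.2 in sgSNHG1), ANKRD20A5P (18.4 and 17.3), LINC01115 (18.1 and 15.2), SYT15-AS1 (17.8 and 8.83), HSD17B7P2 (17.4 and 18.1), LSP1P5 (17.1 and 21.0), ROCK1P1 (16.2 and 19.7) and LINC01410 (15.4 and 18.9). The local background was the smallest of the list, 2.20 fragments in control, at FAM27C, ANKRD20A5P and SYT15-AS1. It was far higher at LINC01115 (20.3) and ROCK1P1 (38.5), whose pileups were 385 and 641 in control and 204 and 491 in sgSNHG1. The ROCK1P1 ratio of 0.28 (error 0.09) was -0.03 for the scaled pileup. Over all genes that RefSeq types as transcribed pseudogenes, the median fold enrichment was 8.37 (quartiles 5.85 and 10.3) over 63 control members and 7.11 (5.12 and 9.43) over 67 sgSNHG1 members. Members that RefSeq types as lncRNA had 5.93 (4.47 and 8.12) over 473 and 6.03 (4.69 and 8.01) over 412. The pseudogene members lacked a counterpart in 5 of 63 cases in control (7.94%, 3.44 to 17.3), against 26% (22.3 to 30.1) of the lncRNA-typed ones. In sgSNHG1 the shares were 5.97% (2.35 to 14.4) and 12.4% (9.54 to 15.9), whose intervals overlap. Peaks of like strength were not compared between these types. Multiply mapped reads were removed by the authors. The part of this removal in the values of near-identical copies was not tested, and these values are uncertain.

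A group of 9 control members had a local background of 100 fragments or more. They lay on chromosome 2 between the starts of GACAT3 (16013928) and ENSG00000232444 (16319566), downstream of the amplified MYCN gene. Their pileups ran from 472 to 6231 fragments in control and from 336 to 3777 in sgSNHG1, while fold enrichments ran only from 1.3 to 6.38 and from 1.27 to 6.22. The range was thus wide in fragments and narrow in fold enrichment. The highest, at ENSG00000226041, had 6.38 and 6.22. GACAT3 had 1.45 and 1.82 at different sites around its start, from pileups of 502 and 475. The median log2 ratio of the 9 pairs was -0.04 for fold enrichment and -0.15 for the scaled pileup, and 8 of 9 were lower on each scale. Lower by more than 2 counting errors were ENSG00000228876 (-0.225, error 0.041), ENSG00000232444 (-0.222, error 0.068) and ENSG00000231266 (-0.127, error 0.045). ENSG00000226764 was higher by more than 2 (0.245, error 0.097). These pairs are among those past 2 counting errors given above, and their errors are small because their pileups are large.

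Among named genes past a -log10 q of 10 in control and sgSNHG1 alike, the lowest log2 ratios were those of SYT15-AS1 (-1.01, error 0.36), KCNJ5-AS1 (-0.61, error 0.31), LINC00881 (-0.53, error 0.23), LINC02916 (-0.53, error 0.39) and ELDR (-0.50, error 0.36). The SYT15-AS1 peak (chr10:46597827-46598196) went from 56 fragments to 23 over the smallest background of each list. The pair at LINC00881 also lies at the start of ENSG00000289409. The highest ratios were those of LERFS and FAM88B, which share a peak (0.57, error 0.35), LYPLAL1-AS1 (0.48, error 0.32), PMS2P3 (0.47, error 0.31) and ANAPC1P2 (0.44, error 0.24). Scaled pileups had the same direction for all of these 10 genes. Of them SYT15-AS1 and LINC00881 passed 2 counting errors.

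Peaks found in a single list were lower than the leading pairs. In the control list alone the highest named members were LINC02256 (8.74), LINC01986 (7.80), GCSIR (7.45), LINC01509 (7.33) and LINC02851 (7.20), with -log10 q from 13.3 to 17.7. The LINC02256 record meant is ENSG00000289083, and another record of that symbol had peaks in both lists. In the sgSNHG1 list alone they were LINC02613 (8.28), THBS2-AS1 (6.99), LINC01625 (6.67), LINC00609 (6.58) and ZNF24TR (6.25). LINC02613 was 1 of the 2 sgSNHG1-only members with a -log10 q of at least 20. The widest control members were 1787 bp at FAM86DP and LINC02018, which share a peak, 1739 bp at FAM86B3P and FAM85B, and 1526 bp at LINC01003. The paired sgSNHG1 peaks were 1807, 1437 and 1053 bp wide, the second of them a member through FAM86B3P alone. The widest peak was not narrower in sgSNHG1. It was 7.77-fold enriched in control and 8.91-fold in sgSNHG1.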

How the data were processed

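ATAC-seq libraries of 4 samples were processed by the authors, who trimmed adapters with cutadapt, aligned to GRCh38 with BWA, removed duplicate, improperly paired, multiply mapped, blacklisted and mitochondrial reads, shifted read ends to the Tn5 cut with deepTools, combined the 2 replicates of a group and called peaks with MACS2. Tool versions were not given in the sources used here. The deposited lists give per peak a score, a fold enrichment (a ratio, each side plus 1, of summit pileup to local background), a -log10 p-value, a -log10 q-value and a summit position. The score was not used. Summit pileups and backgrounds were solved from fold enrichment and -log10 p within 0.001, for 47609 of 47610 control and 42682 of 42682 sgSNHG1 peaks. No replicate depth was used, so precision rests on pooled pileups.

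Members were chosen on GENCODE 44 starts, on chromosomes 1 to 22. Peaks overlapping by 1 bp counted as shared, and mutual best overlaps as pairs. The value of a gene is its highest member peak in each list. Shares have 95% Wilson, differences Newcombe and medians order-statistic intervals, and log2 ratios Poisson counting errors. RefSeq (GRCh38.p14) gave gene types. Named genes were those of 6 lists, the 8 highest pairs, the 5 lowest and 5 highest ratios with a -log10 q of at least 10, the 5 highest of either list alone and the 5 widest. A gene sharing a peak with another counts by itself. Members and lists were chosen with earlier results of these data known. Procedures were tested on simulated data. Python 3.11.15, pandas 2.3.3, scipy 1.17.1 and pysam 0.24.0 were used.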

Additional observations from a re-analysis of the deposited data

How the results depend on the processing

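The numbers of members, the shares found in 1 list and the medians over pairs were computed under 9 to 11 alternatives each, and no median changed sign. With a -log10 q of at least 10, 858 control and 654 sgSNHG1 members were left, the shares without a counterpart were 33.1% and 10.9%, and the median log2 ratios were -0.014 for fold enrichment and -0.325 for width, each over fewer peaks by construction. With a -log10 q of at least 5 the sgSNHG1 share was 10.9%. A window of 500 bp gave shares of 22.9% and 11.4%. Counting as shared only overlaps that cover 50% of each peak or more gave 46.7% and 41.5% and a median log2 ratio of width of -0.260. The scaled pileup gave a median of -0.024 (-0.042 to 0.007). The fold enrichment median at a -log10 q of at least 10 had an interval of -0.034 to 0.013. Both intervals span equality, so the sign of these medians is not settled. The ROCK1P1 ratio reversed to -0.03 on the scaled pileup. The cause of these moves was not tested. Leaving out chromosomes 4 and 9, starts of other gene types, transcribed pseudogenes or backgrounds of 100 and more (the last 2 chosen after seeing the data), or using any lncRNA transcript start or the protein-coding gene record alone, kept the 6 values inside their interval or within 1.5 times their number, with 1901 and 1754 members at most. On the scaled pileup 10 of 48 named genes changed sign. Motif shares fell in 24 of 24 cases in windows of 50 bp on either side. These lie inside the windows of 100 bp, so no share could rise. No paired analysis was possible because the replicates were combined before peaks were called, and no replicate could be left out for the same reason. Pileups of 20 to 27 fragments limit single genes, whose ratios have a median counting error of 0.39.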
